A study of Arabidopsis thaliana with 4 samples.

Results

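A set of 10 heat shock genes of Arabidopsis was followed through an RNA immunoprecipitation (RIP) of CLF (CURLY LEAF), the Polycomb enzyme that methylates histone H3. The members were chosen by name: the heat shock factor HSFA2 (AT2G26150), the disaggregase HSP101 (AT1G74310), HSP70 (AT3G12580), HSP70-1 (AT5G02500), HSP90.1 (AT5G52640), HSP90.2 (AT5G56030), HSP90.3 (AT5G56010) and the small heat shock proteins HSP21 (AT4G27670), HSP17.6II (AT5G12020) and HSP18.2 (AT5G59720). They were chosen with earlier results of these data known. Of these, 7 are known as heat-induced genes, and HSP70-1, HSP90.2 and HSP90.3 as the 3 constitutive ones. A locus was taken under the gene's own identifier or, where a library gave it a serial number, by a reciprocal overlap of at least 0.8 with the gene span. Of the 10, all but HSP90.2 and HSP90.3 were among the 28871 genes joined in all 4 libraries.

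The control RIP group held 2 libraries of Col-0 wild type, and the CLF RIP group held 2 libraries of clf-28 plants carrying Myc-CLF, a tagged CLF that rescues the clf-28 mutant per the labels. Both genotypes were precipitated with an anti-Myc antibody, and the wild type carried no tagged CLF. All plants were 3 weeks old and grew on MS medium at 1/2 strength, with sucrose at 30 g/L, under 16 h of light at 22 °C and 8 h of dark at 18 °C, and 2 g of crosslinked material went into each preparation of nuclei. The labels name no heat treatment. Whether replicates were separate plants is not stated there, so the p-values measure the spread between libraries alone, and that spread may be technical. The deposited tables carry names that swap the groups relative to the sample labels. The labels were used here, and if they are wrong, every direction turns. A level is the FPKM of RNA in the immunoprecipitate, in which CLF binding, nuclear RNA content and total transcript level cannot be told apart, nor can fewer cells of a type and less RNA per cell.

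In plants, heat shock factors of class A1 are held inactive by HSP70 and HSP90 and are released when proteins unfold. They then switch on HSFA2, which prolongs the response, and chaperone genes. HSP101 pulls proteins out of aggregates together with HSP70 and small heat shock proteins, which hold unfolded proteins, while HSP70-1 and the constitutive HSP90 genes serve protein folding in unstressed cells.

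The libraries listed 67135 to 67357 loci. The FPKM were scaled to an estimated 10.0 and 9.71 M fragments in the control RIP and 4.27 and 4.26 M in the CLF RIP, so 1 read weighed 2.31 times as much in the CLF RIP. Of green tissue markers, 4 of 5 were joined, at 35.5 to 1308 FPKM in the control RIP and 10.8 to 427 FPKM in the CLF RIP, with summed levels of 2491 and 2473 against 956 and 903 FPKM. The 5 root markers lay at 0 to 3.68 FPKM with CASP1 and RHD6 listed at 0 throughout, and the 5 mature seed markers at 0 to 0.475 FPKM with EM1 listed at 0 throughout. The part of these differences in the results below was not tested.

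Of the 10 members, 5 passed the filter of at least 1 FPKM in at least 2 libraries and were tested with all 14798 genes that did, by limma on log2(FPKM + 1) with Benjamini-Hochberg adjustment. None of the 5 members passed an adjusted p of 0.05, against 203 of all genes tested (1.37%). An unadjusted p under 0.05 with the higher level in the CLF RIP was found for 3 of 5 members, HSFA2, HSP101 and HSP70, against 17.0% of all genes tested. The same 3 had no overlap between groups and lay higher in the CLF RIP, as did 40.5% of all genes tested. All 5 log2 fold changes were above 0, as were 63.2% over all genes tested, whose median was 0.25. HSFA2 and HSP70 passed the filter only through their CLF RIP values and had to lie higher there, so these counts are no support for a shift of the members. The unadjusted p of all 3 genes missed 0.05 when either control library was left out, that of HSP70 when CLF RIP replicate 1 was, and those of HSP101 and HSP70, at 0.0904 and 0.0615, with structural RNA genes left out.

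**Figure D1:**
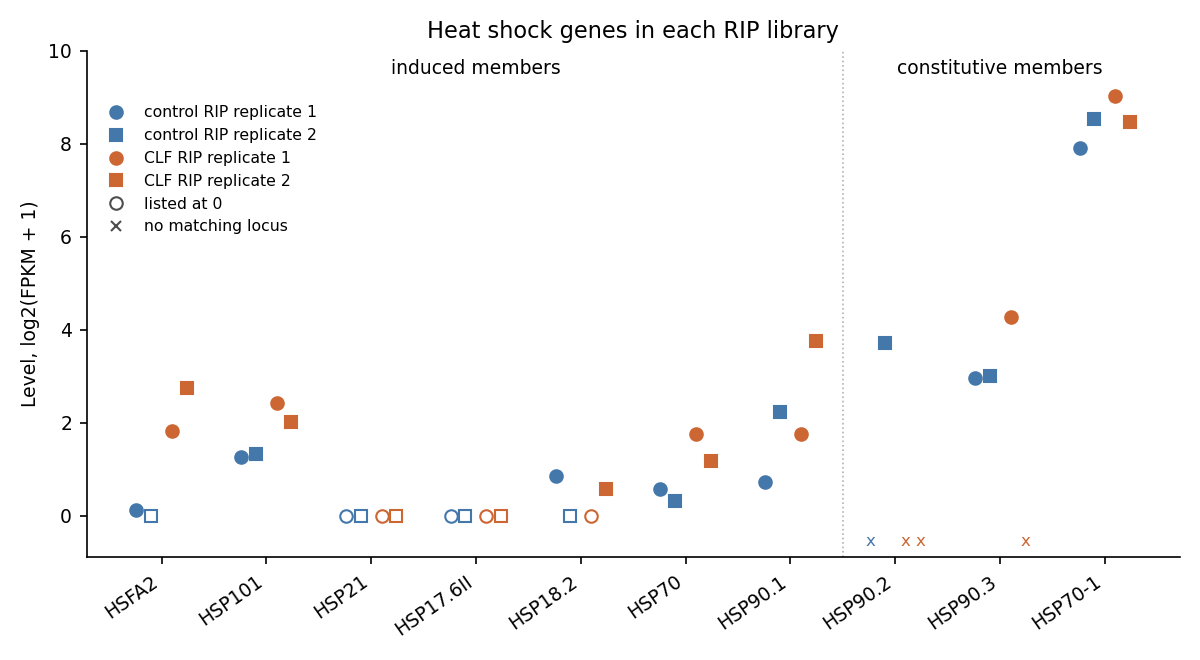
Level of the 10 members in each library, as log2(FPKM + 1); circles and squares are replicates 1 and 2, blue is control RIP and orange CLF RIP, open symbols are listed at 0 and an x marks a library with no matching locus. HSP70-1 lies at 238 to 521 FPKM, far above the induced members, of which HSP21 and HSP17.6II are listed at 0 in all 4 libraries.

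HSFA2, the heat-induced transcription factor that sustains the response, showed the largest fold among the 5 tested members. Its locus on chromosome 2 (TAIR10, 11135682 to 11137396) was listed at 0.0843 and 0 FPKM in control RIP against 2.51 and 5.73 FPKM in CLF RIP. Both CLF RIP libraries lay higher, with their mean at the 61.9th percentile of joined genes, and at this locus neither control library reached 0.1 FPKM. HSFA2 passed the filter through the CLF RIP alone, so its groups could not overlap. The log2 fold change on the log2(FPKM + 1) scale was 2.22 (SE 0.39, 95% interval 1.07 to 3.37), with an unadjusted p of 0.0068 and a limma Benjamini-Hochberg adjusted p of 0.108.

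The HSFA2 values rest on few reads in the control RIP. The value in control RIP replicate 1 corresponds to 1 read, the only whole number that keeps the implied transcript length, 1391 bp, within the gene span. At that length the CLF RIP values correspond to an estimated 12.7 and 28.9 reads. The value of 12.7 is not whole, and the transcript length behind these serial-number loci is not known. With 1391 bp taken for all libraries, the ratio of reads per depth was 97.2 with a counting interval of 16.5 to 3931. Control RIP replicate 2 also listed 75 bp inside the gene (11136371 to 11136445) as a locus of its own, which held 2 reads. With those reads counted for the gene, the ratio was 32.4 (10.4 to 163). Short loci near the gene's end in the CLF RIP libraries were not added. The intervals cover counting error only, and not the spread between libraries or a difference in transcript length between the groups.

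HSFA2 was also listed under its own identifier in both control libraries and under a serial number in both CLF RIP libraries. Across the 253 tested genes with that pattern of identifiers, the median log2 fold change was 0.72, and 39.5% had an unadjusted p under 0.05 and a higher level in the CLF RIP. Across the 2462 genes with their own identifier everywhere the median was 0.11. The part of this listing in the HSFA2 difference was not tested, nor was the part of the level in the listing.

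HSP101, the ClpB-type disaggregase needed for acquired heat tolerance, was detected in all 4 libraries. Its matched locus on chromosome 1, which starts at 27936508 and ends between 27940190 and 27940255, was listed at 1.39 and 1.51 FPKM in control RIP against 4.33 and 3.04 FPKM in CLF RIP. Both CLF RIP libraries lay above both control libraries, which differed from each other by 1.09-fold. The log2 fold change was 0.92 (SE 0.23, 95% interval 0.25 to 1.60), with an adjusted p of 0.149 by limma. HSP101 carried a serial number in all libraries, a pattern shared by 8120 genes whose median log2 fold change was 0.35.

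HSP70, a heat-induced cytosolic HSP70 gene, was low in every library. On chromosome 3 (3991261 to 3993792) it was listed at 0.481 and 0.248 FPKM in control RIP against 2.37 and 1.25 FPKM in CLF RIP. HSP70 passed the filter through the CLF RIP alone, so its groups could not overlap. Within the groups the libraries differed by 1.94-fold and 1.90-fold. The log2 fold change was 1.02 (SE 0.29, 95% interval 0.17 to 1.87), with an adjusted p of 0.169 by limma.

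Because HSP70 was listed under its own identifier throughout, its values could be turned back into whole reads. They were 10 and 5 reads in the control RIP and 21 and 11 reads in the CLF RIP, at an implied transcript length of 2283 bp. The CLF RIP thus held 4.94 times as many reads per depth, with an exact interval of 2.60 to 9.81 that covers counting error only. The log2(FPKM + 1) scale, which understates the change of low genes, gave 2.02-fold.

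HSP90.1, the heat-induced cytosolic HSP90 gene, differed more within the groups than between them. On chromosome 5 (21352399 to 21355361, up to 21355414 in CLF RIP replicate 2) it had levels of 0.660 and 3.71 FPKM in control RIP against 2.38 and 12.6 FPKM in CLF RIP. Replicate 2 was the higher library in both groups, by 5.62-fold and 5.30-fold, and the groups overlapped. The log2 fold change was 1.28 (SE 0.96, 95% interval -1.51 to 4.07), with an adjusted p of 0.459 by limma. Its size moved with every library, to 0.27 when CLF RIP replicate 2 was left out, to 2.28 when CLF RIP replicate 1 was, and to 0.52 and 2.03 when control RIP replicates 1 and 2 were. HSP90.1 was listed under its own identifier in control RIP replicate 1 and under serial numbers elsewhere.

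The small heat shock protein members were at or near 0. HSP21, which protects chloroplast proteins (chromosome 4, 13818870 to 13819971), and HSP17.6II, a cytosolic class II protein (chromosome 5, 3882237 to 3882938), were listed at 0 in all 4 libraries. For HSP17.6II, 3 reads, the limit that a count of 0 allows, would be 0.606 and 0.626 FPKM in the control RIP and 1.42 and 1.43 FPKM in the CLF RIP. For HSP21 they would be 0.335 and 0.346 FPKM and 0.787 and 0.789 FPKM, with the gene span taken as transcript length.

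HSP18.2, a cytosolic class I protein (chromosome 5, 24062577 to 24063277), was listed at 0.810 and 0 FPKM in control RIP against 0 and 0.477 FPKM in CLF RIP. These values were 4 and 0 reads against 0 and 1 read, so no difference was detectable at this depth (ratio 0.579, exact interval 0.0118 to 5.85). At its matched locus, none of the 3 small heat shock protein members thus held over 4 reads in a library. Other loci reached into the longer RefSeq span of HSP18.2 in every library and were not added.

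Of the constitutive members, HSP70-1, the main cytosolic HSP70 of unstressed cells (HSC70-1), was by far the most abundant. On chromosome 5, from 553745 to 556442 or 556591, it was listed at 238 and 367 FPKM in control RIP against 521 and 355 FPKM in CLF RIP. CLF RIP replicate 2 lay below control RIP replicate 2, so the groups overlapped, and in both groups the gene ranked at the 99.8th percentile of joined genes. The log2 fold change was 0.54 (SE 0.32, 95% interval -0.38 to 1.46), with an adjusted p of 0.365 by limma. Relative to the median of all genes it was 0.29, and -0.02 without control RIP replicate 1. HSP70-1 shares long stretches with other cytosolic HSP70 genes, and how reads shared between such copies were assigned was not given in the sources used here.

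HSP90.2 and HSP90.3, constitutive cytosolic HSP90 genes, lie close together on chromosome 5 in the order HSP90.4, HSP90.3, AT5G56020 and HSP90.2. HSP90.3 (22681305 to 22684129, which ended at 22684168 in CLF RIP replicate 1) had levels of 6.80 and 7.07 FPKM in control RIP, with 18.22 FPKM in CLF RIP replicate 1. In CLF RIP replicate 2 a single locus from 22681305 to 22689697, at 38.6 FPKM, spanned both genes. HSP90.2 had a matching locus only in control RIP replicate 2 (22686802 to 22689650), at 12.1 FPKM.

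Control RIP replicate 1 and CLF RIP replicate 1 instead listed a locus from 22684405 to 22689650 that reached HSP90.2 and its neighbour, at 16.0 and 27.1 FPKM. Neither HSP90.2 nor HSP90.3 was tested, and a value of a merged locus is no level of either gene. The adjacent, near-identical HSP90.4 was listed at 27.6 and 15.8 FPKM in control RIP against 3.63 and 22.8 FPKM in CLF RIP. The low library was also the one that listed HSP90.4 under its own identifier, and the log2 fold change of -1.06 missed the threshold (adjusted p 0.526 by limma).

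**Figure D2:**
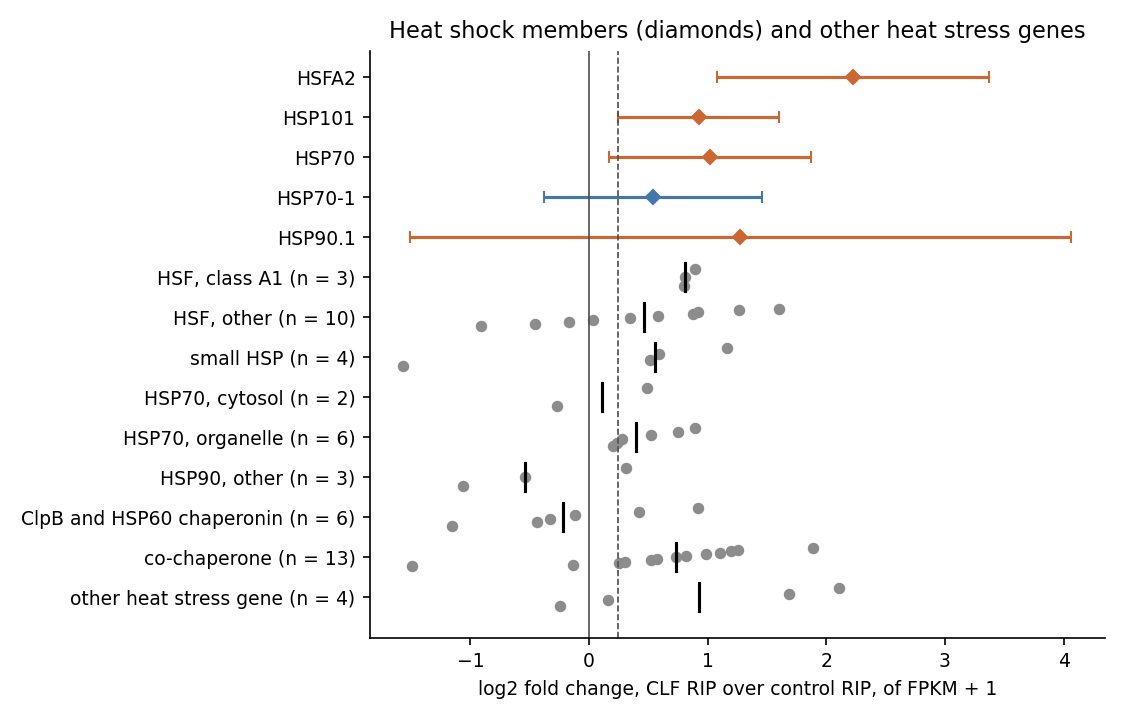
Log2 fold change of FPKM + 1, CLF RIP over control RIP, for the 5 tested members (diamonds with 95% limma intervals, orange induced and blue constitutive) and for 51 other heat stress genes by role (grey points, with black bars at the role medians). The solid line is 0 and the dashed line the median of all genes tested, 0.25; the interval of HSP90.1 runs from -1.51 to 4.07.

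Around the members, 82 other heat stress genes were listed by role, of which 71 were joined, 6 were listed at 0 throughout and 51 were tested. None passed the adjusted threshold by limma. An unadjusted p under 0.05 was found for 15 of 51 genes higher and 4 (7.84%) lower in the CLF RIP, against 17.0% and 7.74% of all genes tested. Their median log2 fold change was 0.52, against 0.25 over all genes tested, and 37 of 51 (72.5%) lay above 0, against 63.2% of all genes. Without overlap, 28 genes lay higher and 8 lower, against 40.5% and 18.9% of all genes tested. HOP3 and DREB2C passed the filter only through their CLF RIP values, and the list was drawn up with earlier results of these data known. These counts too are therefore a description.

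The class A1 heat shock factors, which start the response, had log2 fold changes of 0.80 to 0.89 for the 3 tested. HSFA1B was listed at 8.32 and 6.17 FPKM in control RIP against 14.2 and 12.5 FPKM in CLF RIP, without overlap (log2 fold change 0.81, adjusted p 0.178 by limma). HSFA1D, the most abundant, was listed at 17.3 and 5.55 against 11.7 and 31.6 FPKM, and its groups overlapped (0.89, adjusted p 0.514). Among 10 other heat shock factors the median was 0.46. HSFA4A, the most abundant of these and the one with the smallest p, lay lower in the CLF RIP, at 49.5 and 54.6 against 26.4 and 27.8 FPKM (-0.91, adjusted p 0.113).

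Of 15 other small heat shock protein genes, 14 were joined, 8 stayed under 1 FPKM in every library and 4 were tested. HSP15.4 was the most abundant and lay lower in the CLF RIP, at 40.5 and 39.7 against 16.9 and 9.81 FPKM (log2 fold change -1.56, adjusted p 0.126 by limma). It carried a serial number in both control libraries and its own identifier in both CLF RIP libraries, a pattern whose 497 genes had a median of -0.40. The part of this listing in the HSP15.4 difference was not tested, nor was the part of the level in the listing.

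Of the other cytosolic HSP70 genes, 2 were tested, 1 on each side of 0. HSP70-2 had 16.0 and 3.24 FPKM in control RIP against 6.59 and 5.49 FPKM in CLF RIP (log2 fold change -0.27), and HSP70-5, a heat-induced HSP70, at 1.13 and 0.825 against 1.77 and 1.77 FPKM (0.49, adjusted p 0.234 by limma). Of 7 organelle HSP70 genes, 6 were tested. All 6 had a log2 fold change above 0, as did 63.2% of all genes tested. Their median was 0.40, against 0.25 over all genes tested. The mitochondrial mtHSC70-2 was listed at 1.83 and 1.51 against 3.11 and 4.98 FPKM (0.90, adjusted p 0.183), and mtHSC70-1, the most abundant, varied from 9.32 to 39.2 FPKM in the control RIP and from 10.7 to 48.0 FPKM in the CLF RIP. HSP90.7, of the endoplasmic reticulum, had 0.31 and the chloroplast HSP90.5 had -0.54, with adjusted p of 0.398 and 0.266.

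Of 6 ClpB and chaperonin genes tested, 4 had a log2 fold change below 0 and 2 (33.3%) above 0, against 63.2% of all genes tested above 0. CPN20, a chloroplast co-chaperonin and the most abundant of them, was listed at 32.2 and 34.3 FPKM in control RIP against 13.4 and 15.35 FPKM in CLF RIP (-1.16, adjusted p 0.103 by limma). Of 13 co-chaperone genes tested, 11 (84.6%) lay above 0, against 63.2% of all genes tested. Their median was 0.73, against 0.25 over all genes tested. All but HOP3 carried a serial number in all 4 libraries. Of the 8120 genes with that pattern, 68.5% lay above 0, with a median of 0.35. HOP3 passed the filter through the CLF RIP alone and had to lie above 0. SGT1A, an HSP90 co-chaperone, lay lower in the CLF RIP, at 91.0 and 82.1 against 33.1 and 27.4 FPKM (-1.49). Its adjusted p of 0.0731 by limma was the smallest among the 51 genes.

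Of 4 other heat stress genes tested, DREB2A and DREB2C had the largest folds. Both encode transcription factors of the drought and heat response, and DREB2A acts upstream of HSFA3. DREB2A was listed at 8.88 and 9.12 FPKM in control RIP against 25.6 and 68.6 FPKM in CLF RIP (log2 fold change 2.11, adjusted p 0.155 by limma). DREB2C was listed at 0.509 and 0.526 against 4.98 and 3.00 FPKM (1.69, adjusted p 0.1005). DREB2A did not overlap between the groups, and DREB2C, which passed the filter through the CLF RIP alone, could not.

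**Figure D3:**
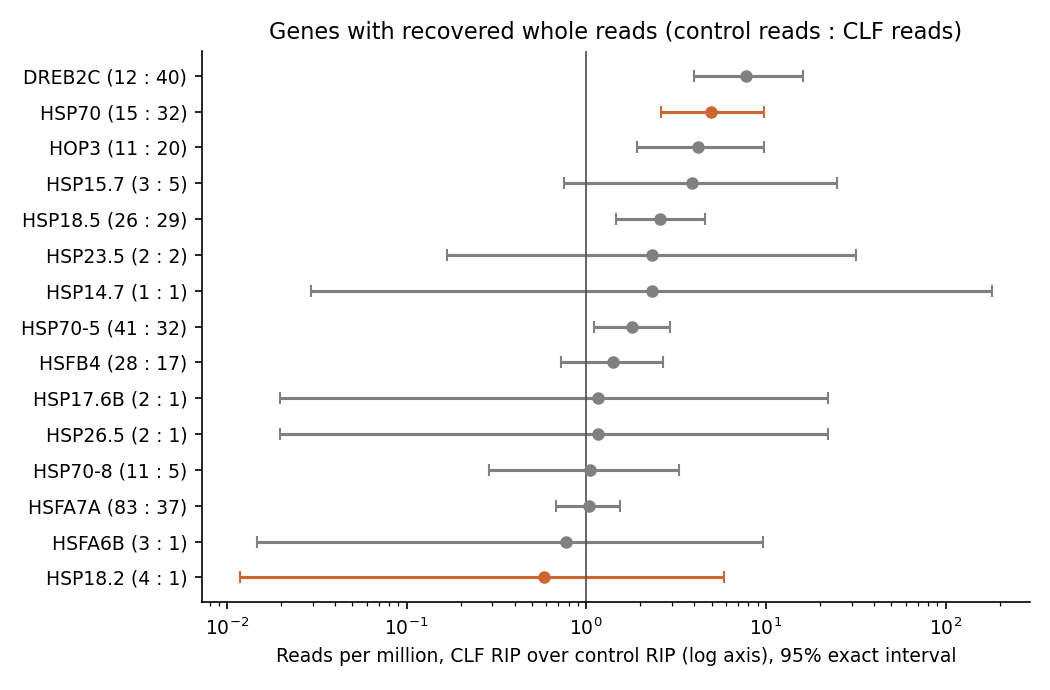
Ratio of reads per depth, CLF RIP over control RIP, on a log axis with exact 95% intervals that cover counting error only, for 15 genes with reads in both groups; orange marks members, and the numbers give summed reads in the control RIP and CLF RIP. DREB2C (7.72) and HSP70 (4.94) lie highest, and HSP18.2 rests on 5 reads.

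Whole reads were recovered for 17 heat stress genes and members, and 9 of these held at most 5 reads in every library. Only genes that carried no serial number in any library could enter. The 4 heat stress genes with an unadjusted p under 0.05 by limma and a lower level in the CLF RIP each carried one. They were SGT1A, CPN20, HSFA4A and HSP15.4, and the counts that follow do not cover them. Of the 17, 5 had an interval above 1, HSP70, DREB2C, HOP3, HSP18.5 and HSP70-5, and none had one below 1. Of the 5 intervals, 4 lay above the fold of the median gene, 1.19. That fold is on the log2(FPKM + 1) scale, which is not the measure of these ratios. No count test was run over all genes, so no share of all genes stands beside these counts. HOP3, which links HSP70 to HSP90, held 5 and 6 reads in the control RIP and 9 and 11 in the CLF RIP (ratio 4.21, 1.92 to 9.73). DREB2C held 6 and 6 against 25 and 15 reads (7.72, 3.97 to 16.2). HSP18.5, a small heat shock protein, held 10 and 16 against 15 and 14 reads (2.58, 1.47 to 4.56). HSP70-5 held 24 and 17 against 16 and 16 reads (1.81, 1.10 to 2.94), and its interval is the one that reaches below the fold of the median gene. The heat-induced factor HSFA7A held 42 and 41 against 20 and 17 reads, a ratio of 1.032.

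**Figure D4:**
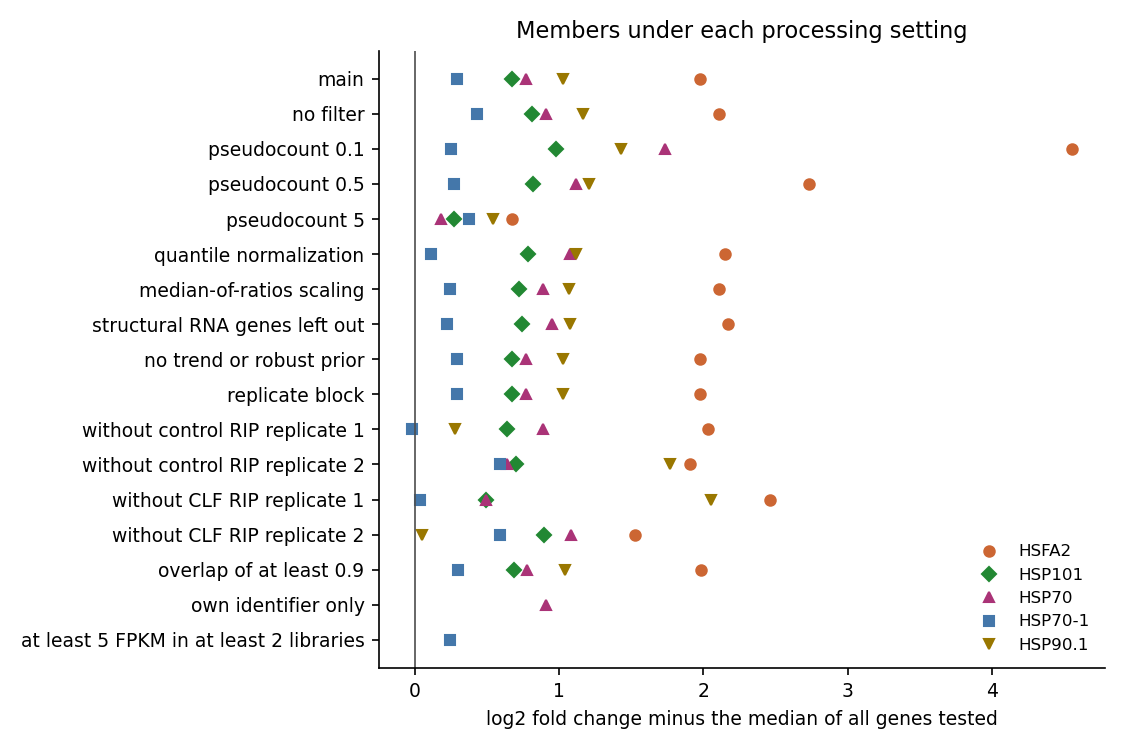
Log2 fold change of the 5 tested members minus the median of all genes tested, under each processing setting; each symbol is a gene. HSFA2 lies highest in every setting in which it was tested, and HSP70-1 is the one that falls below 0, at -0.02 without control RIP replicate 1.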

How the data were processed

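Anti-Myc RIP libraries were sequenced from 4 samples. The authors deposited 1 FPKM value per locus, and per the submitters' processing notes used Trimmomatic and TopHat2 2.0.10 with TAIR10; the FPKM program was not given in the sources used here. Groups follow the labels. Serial loci were joined to gene spans of the tables or, for names and matching, RefSeq TAIR10.1. The reciprocal overlap was at least 0.8 and the span at least 300 bp. Left out were 199 genes with a serial-number locus at or above the FPKM of 1 read on a 75 bp locus. Coordinates are those of the tables.

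A gene entered the test with 1 FPKM or more in 2 or more libraries, and limma 3.58.1 was run on log2(FPKM + 1) under R 4.3.3 (eBayes with trend and robust prior) and Benjamini-Hochberg adjustment, which was tested on simulated data. Depth was fitted on annotated pseudogene loci so that low values became whole reads; 93.2% to 96.5% were whole within 0.1. Whole reads per gene, an alternative chosen after seeing the data, came from the ratios of the 4 values within 0.05, with exact 95% intervals. An exact permutation of 2 against 2 libraries cannot go below p = 0.3333. Named genes were the members, HSP90.4 and, per role, the most abundant gene and that with the smallest p; HOP3, HSP18.5 and HSFA7A were named after their values were seen. Members and lists were chosen with earlier results of these data known. Alternatives changed the filter, pseudocount, scaling, prior, pairing, joining rule and libraries. Tables were handled with numpy 2.4.6 and pandas 2.3.3 in Python 3.11.15, intervals with scipy 1.17.1, and plots with matplotlib 3.10.9.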

Additional observations from a re-analysis of the deposited data

Results flagged for a closer look

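At the end of HSFA2, both CLF RIP libraries listed a short locus that neither control RIP library listed. In CLF RIP replicate 1 it ran on chromosome 2 from 11137382 to 11137538 (157 bp), at 103 FPKM. In CLF RIP replicate 2 it ran from 11137337 to 11137538 (202 bp), at 45.6 FPKM, which corresponds to 5 reads. It overlapped the gene span of the tables by 15 and 60 bp, lay wholly within the longer RefSeq span of HSFA2, and was not used in any comparison or ratio of reads. The number of reads at 157 bp could not be read from the values, since 62.8% of low values at that span were whole multiples of the lowest within 0.03.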

How the results depend on the processing

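No member passed an adjusted p of 0.05 by limma in any of the settings tried, and none of the 5 tested members changed direction; the lowest adjusted p was 0.0812, for HSP70 among genes under their own identifier only. That setting held HSP70 alone of the 5, and a filter of 5 FPKM held HSP70-1 alone. Log2 fold changes ranged from 0.83 to 4.84 for HSFA2, 0.43 to 1.27 for HSP101, 0.34 to 2.02 for HSP70, 0.10 to 0.85 for HSP70-1 and 0.27 to 2.28 for HSP90.1. Of the other heat stress genes, 2 of 8 passed by limma among genes under their own identifier only, against 488 of all 2462 genes tested there. They were HSP18.5 (adjusted p 0.0405) and DREB2C (adjusted p 0.0279), and DREB2C passed the filter through the CLF RIP alone. In the other settings 0 passed. Members with an unadjusted p under 0.05 by limma numbered 3 of 5 as reported, 1 with structural RNA genes left out and 4 with the replicate block. Over all genes tested, in either direction, 3657 of 14798 had one as reported. With structural RNA genes left out, 3103 of 14780 did. Over the whole table, 203 genes passed, against 7 without the filter, 87 with a pseudocount of 5, 67 without trend and robust prior, 488 under own identifiers only and 0 to 2 when a library was left out, where the lone library of a group is assumed to vary like the other group; the cause was not tested. With the replicate number as a block, 0 genes passed, and 2710 of 14798 had an unadjusted p under 0.05 by limma. Over all genes tested, the same-numbered libraries' deviations correlated at 0.0194. That value does not settle whether same-numbered libraries were prepared together. Under that block HSP90.1 had an unadjusted p of 0.0229 and an adjusted p of 0.248. Tests on estimated or whole reads put all 5 tested members past 0.05, but they cover counting error only, and estimated reads took the gene span as transcript length. Of the calls, 54.7% were higher in the CLF RIP, against 45.0% with quantile normalization, 41.5% under median-of-ratios scaling (224 genes) and 38.0% with structural RNA genes left out (142 genes), and the median of all genes moved from 0.25 to 0.02, 0.01 and -0.12. In CLF RIP replicate 1, 3 reads would be 1.42 FPKM on HSP17.6II and 0.787 FPKM on HSP21, so a count of 0 does not exclude levels of those genes below these values.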
